A study of Mus musculus with 27 samples.

Results

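Cells made to lack Drp1, the enzyme that divides mitochondria, were compared with cells made to lack Mff, a protein that brings Drp1 to its site of action. The comparison took the 6 libraries of Drp1 KO clones and the 6 libraries of Mff KO clones, 12 of the 27 libraries of the series, by the genotype in the column names, and it covered all genes. Each genotype was represented by 2 clones with 3 libraries each, so the clone was the unit of replication.

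Mitochondria continuously divide and fuse. Drp1, encoded by Dnm1l, is a cytosolic GTPase of the dynamin family that assembles into a ring around the outer membrane and constricts it, and Mff is an outer membrane protein that recruits it there. Drp1 and Mff also act in the division of peroxisomes. Loss of either protein is known to leave mitochondria long and connected, and Drp1 has other receptors besides Mff, among them Mief1 and Mief2.

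The cells were 4T1, a mouse mammary carcinoma line that metastasizes readily, edited with CRISPR-Cas9. The Drp1 KO clones carried the codes gs1B8 and gs2_B4, and the Mff KO clones carried the codes gs1_B4 and gs1_C8. Libraries of 2 Fis1 KO clones entered the fit of clone sums only to help estimate the spread between clones, and 3 libraries of unedited parental 4T1 cells are given as a background level. The sources used here do not say whether the 3 libraries of a clone came from separate cultures, nor how the codes match the clone numbers of the labels. The p-values for pairs of clones therefore measure only the spread between these libraries, and the effect of the targeted gene and other differences between clones cannot be told apart within a pair.

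Polyadenylated RNA was counted per gene as estimated read counts, with library totals from 23863239 to 26929660 in Drp1 KO and from 21874436 to 26900429 in Mff KO. Levels below are CPM, counts scaled to library size and library composition, as the mean ± SD of the 3 libraries of a clone. Of 8 epithelial markers 7 averaged at least 1 CPM, and the 8 together summed to 2510 to 3370 CPM in Drp1 KO libraries and 2530 to 3380 CPM in Mff KO libraries. Of 8 fibroblast markers 1 reached 1 CPM (Pdgfra), with Col3a1, Lum and Thy1 at 0 in all 12 libraries, and none of 6 endothelial markers did. The 8 leukocyte markers summed to 7.28 to 9.48 CPM in Drp1 KO and 7.94 to 10.2 CPM in Mff KO, nearly all from Cd68 and Csf1r, and Cd3e and Adgre1 were at 0. The clone gs1_C8 stood apart from the other 3 clones in interferon-stimulated genes and in Vim, which encodes the intermediate filament vimentin. Vim stood at 544 CPM in gs1B8 and 527 CPM in gs2_B4, against 575 CPM in gs1_B4 and 7.60 CPM in gs1_C8.

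The targeted transcripts were each low in the clones named for them. Dnm1l (ENSMUSG00000022789.15, GRCm38 chromosome 16, 16312230 to 16358959) measured 71.2, 67.2 and 68.4 CPM in gs1B8 and 42.6, 41.2 and 40.4 CPM in gs2_B4. It measured 212, 227 and 233 CPM in gs1_B4 and 235, 231 and 238 CPM in gs1_C8. Mff (ENSMUSG00000026150.14, chromosome 1, 82724890 to 82752394) measured 84.3, 92.1 and 87.8 CPM in gs1B8 and 97.0, 99.3 and 97.9 CPM in gs2_B4. It measured 47.6, 46.8 and 45.0 CPM in gs1_B4 and 41.0, 40.9 and 45.3 CPM in gs1_C8. No Drp1 KO library overlapped an Mff KO library for either gene, Mff in Drp1 KO stood near its parental mean of 85.5 CPM, and Dnm1l in Mff KO stood near its parental mean of 221 CPM. The log2 fold change of Drp1 KO over Mff KO was -2.06 ± 0.26 (SE) for Dnm1l and 1.06 ± 0.13 for Mff. With the clones as replicates edgeR's quasi-likelihood test gave adjusted p of 0.23 and 0.22 for these 2 differences, and DESeq2 gave 1.1e-10 and 1.5e-12. RNA was still detected from both genes in their own knockouts, and these counts do not show whether protein was made.

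**Figure D1:**
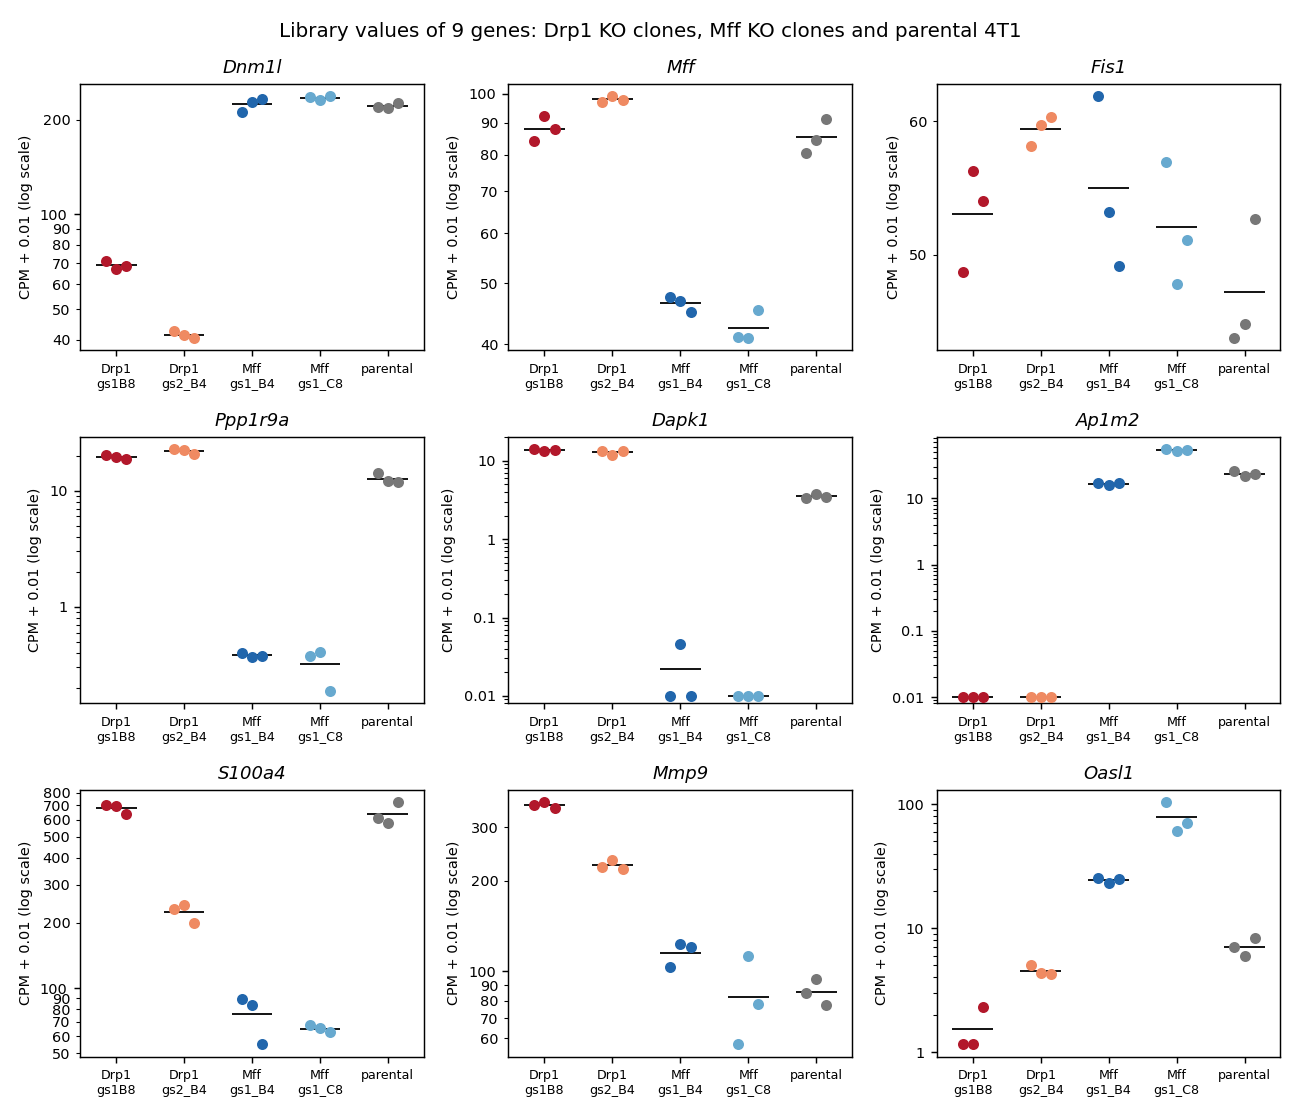
CPM of 9 genes in each library on log axes with 0.01 added, for the Drp1 KO clones (red and orange), the Mff KO clones (dark and light blue) and parental 4T1 (grey), with each clone's mean as a line. Dnm1l lies at 40.4 to 71.2 CPM in Drp1 KO libraries and at 212 to 238 CPM in Mff KO libraries, and Ap1m2 has 0 counts in every Drp1 KO library.

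The other genes of mitochondrial fission showed no difference of this size. Fis1, an outer membrane protein of the fission machinery, measured 52.9 ± 3.65 CPM in gs1B8 and 59.3 ± 1.21 CPM in gs2_B4, against 54.8 ± 6.64 CPM in gs1_B4 and 51.9 ± 4.42 CPM in gs1_C8, and the clones overlapped. The fusion GTPases Mfn1, Mfn2 and Opa1 overlapped as well, with log2 fold changes of -0.03 ± 0.22, -0.26 ± 0.17 and -0.06 ± 0.15. Of 16 tested fission genes, 3 were higher in both Drp1 KO clones than in both Mff KO clones (Mff, Spire1 and Bnip3) and 3 were lower (Dnm1l, Mief2 and Mtfr2). Over all 15513 genes tested, 19% were higher in both Drp1 KO clones and 19.2% were lower, so these shares were near those of all genes.

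A single gene passed when the clone was the replicate. Ppp1r9a, which encodes neurabin, a scaffold that binds actin and protein phosphatase 1 (ENSMUSG00000032827.15, chromosome 6, 4902917 to 5165661), measured 20.4, 19.7 and 18.9 CPM in gs1B8 and 22.9, 22.3 and 20.6 CPM in gs2_B4. It measured 0.393, 0.361 and 0.365 CPM in gs1_B4 and 0.368, 0.399 and 0.177 CPM in gs1_C8, and the parental mean was 12.7 CPM. The Fis1 KO clones stood at 24.15 and 16.64 CPM. All 6 Drp1 KO libraries were higher than all 6 Mff KO libraries, and the log2 fold change was 5.88 ± 0.29 (adjusted p of 0.028, edgeR's quasi-likelihood test). The call was lost without clone gs1B8 (adjusted p of 0.27), gs2_B4 (0.17) or gs1_C8 (0.21), and with only the Drp1 and Mff KO clones in the fit (0.10), and it held without any single library.

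This 1 call is 0.00645% of the genes tested by edgeR, and 952 genes had an unadjusted p under 0.05. DESeq2 on the same sums of counts called 231 genes (1.49%), 89 higher and 142 lower in Drp1 KO. The limma voom fit with the clone as a random effect called 135 of 12892 genes (1.05%), 63 higher and 72 lower. At the level of single libraries, edgeR called 721 of 13871 genes (5.20%) higher and 796 (5.74%) lower in all 4 pairs of a Drp1 KO with an Mff KO clone. In counts simulated for this comparison, the edgeR test on 15207 genes recovered 0% of 50 genes changed 1.5-fold, 6% of 50 changed 2-fold, 52% of 50 changed 4-fold and 62% of 50 changed 8-fold. Simulated differences of 1.5-fold and 2-fold were thus mostly missed, and those of 4-fold and 8-fold were missed in part. The simulated clones shared 1 mean per gene with a fitted spread, so the real clones may differ more. In the data, edgeR did not call Ap1m2 (log2 fold change -14.39, adjusted p of 0.22) or Mal2 (-11.84, 0.66). A gene that was not called can therefore still differ widely.

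The 2 Mff KO clones differed as much as clones of different genotypes did, and the 2 Drp1 KO clones differed somewhat less. The median absolute log2 difference over 15513 genes was 0.256, 0.280, 0.287 and 0.328 for the 4 pairs across genotypes. It was 0.225 between the 2 Drp1 KO clones and 0.310 between the 2 Mff KO clones. At the level of libraries, edgeR called from 6519 to 7929 of 13871 genes in the 4 pairs across genotypes, 5698 between the Drp1 KO clones and 7612 between the Mff KO clones. The genes below are therefore given as values. Apart from Ppp1r9a, none of them passed edgeR with the clone as the replicate.

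A set of genes was expressed in both Drp1 KO clones and almost silent in both Mff KO clones. Dapk1, a calmodulin-regulated kinase linked to cell death and autophagy (ENSMUSG00000021559.14, chromosome 13, 60601947 to 60763191), measured 14.1, 13.3 and 13.8 CPM in gs1B8 and 13.4, 12 and 13.3 CPM in gs2_B4. In the Mff KO libraries it had 1 count in all, against 2039 counts in Drp1 KO, a ratio of 2100 (95% counting interval 377 to 83100), and edgeR's adjusted p was 0.069. Mest, an imprinted gene of the alpha/beta hydrolase fold family (ENSMUSG00000051855.15, chromosome 6, 30723547 to 30748465), had 1954 counts in Drp1 KO and 3 counts in Mff KO, a ratio of 672 (230 to 3260). Both genes were present in parental cells, at 3.53 CPM for Dapk1 and 6.93 CPM for Mest, and in the Fis1 KO clones, at 14.6 and 7.98 CPM for Dapk1 and 25.6 and 7.65 CPM for Mest. These intervals cover counting error only and say nothing of the spread between clones.

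Other genes of the 12 with the widest gap on this side follow. Cav1, the main coat protein of caveolae, measured 81.1 ± 6.21 CPM in gs1B8 and 51.6 ± 6.64 CPM in gs2_B4, against 7.82 ± 1.62 CPM in gs1_B4 and 3.35 ± 0.726 CPM in gs1_C8. Lrp1, an endocytic receptor of the LDL receptor family, measured 93.7 ± 3.27 CPM and 208 ± 28 CPM in the Drp1 KO clones, against 15.6 ± 2.09 CPM and 3.54 ± 0.525 CPM in the Mff KO clones. S100a4, a calcium-binding protein linked to metastasis, measured 676 ± 35.3 CPM in gs1B8 and 225 ± 22.1 CPM in gs2_B4, against 75.8 ± 18.3 CPM in gs1_B4 and 65.0 ± 2.62 CPM in gs1_C8. For S100a4 the parental mean was 639 CPM, near gs1B8. Col5a1, a fibrillar collagen chain, stood at 17.6 and 27.6 CPM in Drp1 KO and 5.64 and 3.46 CPM in Mff KO. Mtcl1, which binds microtubules, stood at 22.1 and 43.9 CPM in Drp1 KO and 8.28 and 5.18 CPM in Mff KO. Nfe2l3, a transcription factor of the NRF family, stood at 8.08 and 8.01 CPM in Drp1 KO and 2.83 and 1.18 CPM in Mff KO.

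In 2 of these 12 genes most of the difference came from clone gs2_B4. Cldn6, a claudin of early epithelia, measured 1.15 CPM in gs1B8 and 49.1 CPM in gs2_B4, against 0.272 and 0.213 CPM in the Mff KO clones. Itgb2, the beta chain of the leukocyte integrins, measured 5.58 CPM in gs1B8 and 58.8 CPM in gs2_B4, against 1.71 and 1.58 CPM. DESeq2 called Cav1 (adjusted p of 9.3e-13), Lrp1 (0.0058), Col5a1 (0.00094) and Mtcl1 (1e-05), and it did not call S100a4 (0.15), Nfe2l3 (0.057) or Itgb2 (0.29). It also called Cldn6 (0.0092), although most of that difference came from gs2_B4, and the voom fit gave Cldn6 0.51.

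On the other side, 3 genes were silent or nearly so in both Drp1 KO clones. Ap1m2 encodes the mu subunit of the AP-1B adaptor, which sorts proteins to the basolateral side of epithelial cells (ENSMUSG00000003309.14, chromosome 9, 21294275 to 21312337). It had 0 counts in every Drp1 KO library, against 17, 15.8 and 16.9 CPM in gs1_B4 and 55.1, 51.3 and 52.9 CPM in gs1_C8, and the parental mean was 23.5 CPM. With a floor of 3 counts over the group it was at least 1760-fold lower in Drp1 KO. Mal2, a membrane protein of apical transcytosis (ENSMUSG00000024479.3, chromosome 15, 54571192 to 54602847), had 0 or 1 count in each Drp1 KO library and measured 53.6 ± 2.85 CPM in gs1_B4 and 197 ± 7.78 CPM in gs1_C8. Nox4, a NADPH oxidase that makes hydrogen peroxide, measured 0.545 ± 0.166 CPM in gs1B8 and 0.349 ± 0.0811 CPM in gs2_B4, against 13.8 ± 0.853 CPM in gs1_B4 and 31.3 ± 3.66 CPM in gs1_C8. The Fis1 KO clones were low in these genes too, at 0 and 0.0138 CPM for Ap1m2, 6.36 and 0.0801 CPM for Mal2 and 0.601 and 0.660 CPM for Nox4. edgeR's adjusted p was 0.22 for Ap1m2, 0.66 for Mal2 and 0.21 for Nox4, and DESeq2 gave 6.7e-15, 5.9e-07 and 7.8e-25.

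The remaining genes of the 12 with the widest gap below 0 were 3 of the interferon-stimulated list (Oasl1, Trim30a and Usp18) and Sp100, given next, and 5 others. Arhgef16, a guanine nucleotide exchange factor, stood at 1.95 and 1.06 CPM in Drp1 KO and 11 and 26.2 CPM in Mff KO. Nexn, an actin-binding protein, stood at 1.71 and 0.968 CPM in Drp1 KO and 28.8 and 8.98 CPM in Mff KO. Gsdmd, the pore-forming protein of pyroptosis, stood at 1.71 and 0.827 CPM in Drp1 KO and 6.35 and 12.7 CPM in Mff KO. Atp13a4, a P5-type ATPase, stood at 0.503 and 1.26 CPM in Drp1 KO and 26.3 and 6.86 CPM in Mff KO. Lgals9, the lectin galectin-9, stood at 5.59 and 8.17 CPM in Drp1 KO and 32.4 and 139 CPM in Mff KO.

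Interferon-stimulated genes formed the list with the lowest median. These genes are switched on downstream of the type I interferon receptor, or directly by IRF3 and IRF7, and their products restrict viruses. Of 38 tested members, 29 (76.3%) were lower in both Drp1 KO clones than in both Mff KO clones, 0 were higher and 9 overlapped. Of all genes tested 19.2% were lower and 19% higher. The list's median log2 fold change was -2.96, against -0.01 over all genes tested. None of the 38 passed edgeR with the clone as the replicate (smallest adjusted p of 0.67), although 31 had an unadjusted p under 0.05. DESeq2 called 14 and the voom fit called 2. At the level of libraries, 15 of the 38 were called lower in all 4 clone pairs and 0 were called higher.

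Most of the size of this difference came from the clone gs1_C8. The list's median log2 difference was -4.25 for gs1B8 and -3.53 for gs2_B4 over gs1_C8, but -0.69 and -0.48 over gs1_B4. Between the Mff KO clones the median of gs1_C8 minus gs1_B4 was 3.19. Without gs1_C8 the fitted median was -0.62, and 29 members still had both Drp1 KO clones below gs1_B4, with 5 above it. The shares over all genes in that setting were 36.5% below and 36.2% above.

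Oasl1, an oligoadenylate synthetase-like protein (chromosome 5, 114923240 to 114937915), measured 1.15, 1.14 and 2.28 CPM in gs1B8 and 5.01, 4.32 and 4.24 CPM in gs2_B4. It measured 25.5, 23 and 24.9 CPM in gs1_B4 and 104, 60.8 and 70.1 CPM in gs1_C8, and the parental mean of 7.03 CPM lay between the genotypes. Trim30a, a RING-finger protein induced by interferon (chromosome 7, 104409025 to 104465193), measured 0.359 ± 0.145 CPM in gs1B8 and 0.444 ± 0.225 CPM in gs2_B4, against 2.58 ± 0.142 CPM in gs1_B4 and 43.9 ± 15.1 CPM in gs1_C8. Usp18, which removes ISG15 from proteins and dampens interferon signalling, measured 0.548 and 0.751 CPM in Drp1 KO, against 3.12 and 64.9 CPM in Mff KO. Oas1g, an oligoadenylate synthetase that senses double-stranded RNA, measured 0.979 and 1.51 CPM in Drp1 KO, against 4.21 and 41.7 CPM in Mff KO. Sp100, a nuclear body protein outside the list, measured 0.235 and 0.563 CPM in Drp1 KO, against 4.93 and 65.8 CPM in Mff KO. Oas1g has close paralogs beside it, so its counts are uncertain. In gs1_C8 the first library was the highest of the 3 for Oasl1, Trim30a and Usp18.

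**Figure D2:**
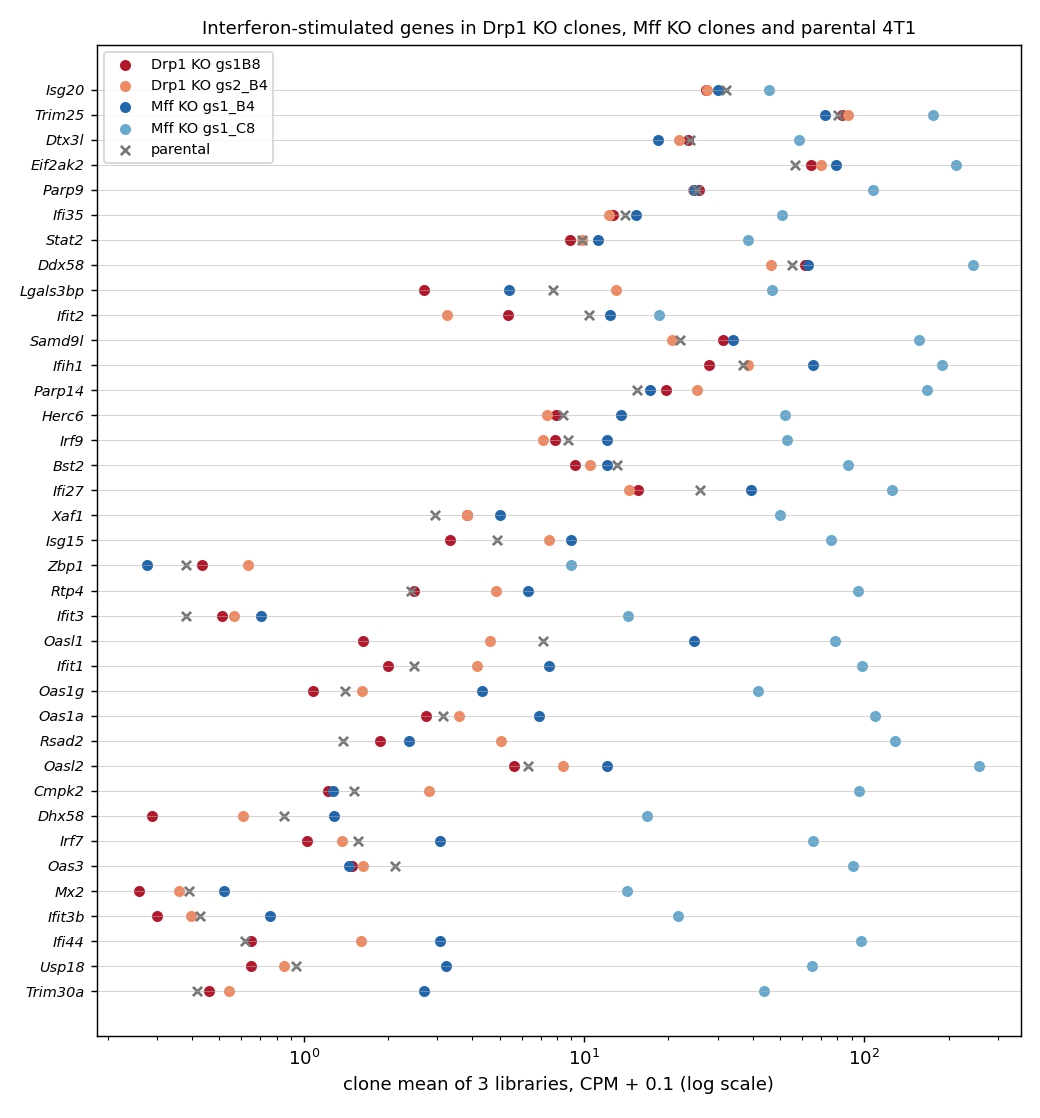
Clone means of 37 of the 38 interferon-stimulated genes on a log axis of CPM with 0.1 added, for the Drp1 KO clones (red and orange), the Mff KO clones (dark and light blue) and parental 4T1 (crosses). The gs1_C8 points lie to the right of the other clones in all 37 genes drawn, and 28 of these have both Drp1 KO clones left of both Mff KO clones.

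The promoters of these genes were searched for the letters GAAANNGAAA on both strands, the core of the element bound by IRF factors. RefSeq promoters of 300 bases on GRCm38.p6, from 250 before to 50 after the start, were matched for 29 of the 38 genes. The motif was found in 14 of the 29 (48.3%), in 305 of the 10074 tested genes with a promoter (3.03%), and in 943 of all 27025 promoters (3.49%). Oasl1, the gene with the widest gap among the 29, had no match, and neither did Ifit2, Irf7 or Ifi44. A match is a description of the sequence and does not show binding. Shown are 3 promoters with the motif, from different gene families and with a mean of at least 5 CPM over the 4 clones, taken in order of the gap between the genotypes with the widest first, and with the motif or its reverse complement in capitals. They are Trim30a (chr7:104465144-104465443, minus strand), Oas1g (chr5:120887564-120887863, minus strand, with 2 overlapping matches) and Ifit3b (chr19:34607707-34608006, plus strand, with 2 matches). In each of these 3 genes only gs1_C8 stood above 5 CPM.
Trim30a: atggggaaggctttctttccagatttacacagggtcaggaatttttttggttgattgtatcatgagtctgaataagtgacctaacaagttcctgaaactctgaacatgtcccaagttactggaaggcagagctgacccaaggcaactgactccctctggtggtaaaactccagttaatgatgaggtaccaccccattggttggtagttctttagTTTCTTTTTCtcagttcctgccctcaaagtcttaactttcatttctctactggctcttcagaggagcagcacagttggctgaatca
Oas1g: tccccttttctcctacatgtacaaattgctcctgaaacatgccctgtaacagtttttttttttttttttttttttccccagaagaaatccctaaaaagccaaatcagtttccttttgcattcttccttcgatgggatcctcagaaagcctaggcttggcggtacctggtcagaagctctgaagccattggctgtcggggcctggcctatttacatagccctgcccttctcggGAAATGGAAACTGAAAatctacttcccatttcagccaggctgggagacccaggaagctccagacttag
Ifit3b: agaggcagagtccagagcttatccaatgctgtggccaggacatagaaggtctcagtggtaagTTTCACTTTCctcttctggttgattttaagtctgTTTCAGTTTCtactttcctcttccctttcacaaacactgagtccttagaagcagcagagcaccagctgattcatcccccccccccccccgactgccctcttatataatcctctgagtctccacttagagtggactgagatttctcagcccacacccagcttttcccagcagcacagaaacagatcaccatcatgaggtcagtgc

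Ifit3b, an interferon-induced protein with tetratricopeptide repeats, had 0.199 and 0.295 CPM in Drp1 KO, against 0.658 and 21.6 CPM in Mff KO. It has a near-identical neighbour, Ifit3, so reads may be split between them.

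Related immune lists also differed most over gs1_C8. Guanylate-binding and immunity-related GTPases attack the vacuoles of intracellular pathogens. Of 14 tested, 6 were lower in both Drp1 KO clones (42.9%, against 19.2% of all genes) and 0 were higher (against 19%). Their median log2 difference was -3.89 and -3.63 over gs1_C8, but 0.00 and 0.23 over gs1_B4, and without gs1_C8 the fitted median was 0.11, against -2.92 with it. Irgm2, a member of that group, measured 1.05 and 1.29 CPM in Drp1 KO, against 2.97 and 38.5 CPM in Mff KO.

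Of 20 nucleic acid sensors and their regulators, 11 were lower in both Drp1 KO clones (55%) and 1 was higher (Rnaseh2b, 5%). Of all genes 19.2% were lower and 19% higher. Ifih1, which encodes the RNA sensor MDA5 (chromosome 2, 62595798 to 62646255), measured 27.8 ± 1.41 CPM in gs1B8 and 38.3 ± 1.58 CPM in gs2_B4, against 65.6 ± 3.71 CPM in gs1_B4 and 190 ± 25.7 CPM in gs1_C8. Tlr3, the endosomal receptor of double-stranded RNA, measured 34.0 and 35.6 CPM in Drp1 KO, against 56.9 and 168 CPM in Mff KO. Without gs1_C8 both Drp1 KO clones lay below gs1_B4 in 12 of 20 (60%) and above it in 4 (20%). The shares of all genes in that setting were 36.5% and 36.2%. The sensors' median was then -0.18, against -0.51 with gs1_C8. Of 21 genes of MHC class I presentation, 6 were lower (28.6%, against 19.2% of all genes) and 0 were higher. The list's medians were -0.17 and 0.03 over gs1_B4 and -0.94 and -0.76 over gs1_C8. Without gs1_C8 the fitted median was -0.06, against -0.39 with it. B2m, the light chain of MHC class I, measured 245 ± 15.8 CPM and 216 ± 10.1 CPM in Drp1 KO, against 337 ± 12.2 CPM in gs1_B4 and 446 ± 82.2 CPM in gs1_C8.

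Genes of epithelial junctions and polarity hold epithelial cells together and sort their membranes. Of 36 tested, 14 were lower in both Drp1 KO clones (38.9%, against 19.2% of all genes) and 1 was higher (Ctnna1, 2.78% against 19%). DESeq2 called 4 of the 36 and the voom fit 5. Besides Ap1m2 and Mal2 the lower genes included Rab25, a GTPase of apical recycling, at 12.2 ± 1.03 CPM and 9.45 ± 1.03 CPM in Drp1 KO, against 20.8 ± 1.05 CPM and 42.2 ± 3.04 CPM in Mff KO. Cldn1, a tight junction claudin, stood at 0.614 and 1.02 CPM in Drp1 KO and 1.90 and 21 CPM in Mff KO. The defining epithelial genes Cdh1 and Epcam overlapped: Cdh1 stood at 356 and 220 CPM in Drp1 KO and 245 and 379 CPM in Mff KO. Without gs1_C8 the list's median log2 fold change moved to -0.06, against -0.22 with it.

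Of 23 tested mesenchymal and matrix genes, 8 were higher in both Drp1 KO clones (34.8%) and 2 were lower (8.7%, Col4a1 and Ccn2). Of all genes 19% were higher and 19.2% lower. Sparc, a secreted matrix glycoprotein, measured 63.0 ± 8.40 CPM and 64.5 ± 13.1 CPM in Drp1 KO, against 27.4 ± 6.16 CPM in gs1_B4 and 7.23 ± 1.65 CPM in gs1_C8. Twist1, a transcription factor of the epithelial to mesenchymal transition, measured 13.2 and 16.2 CPM in Drp1 KO, against 8.45 and 1.85 CPM in Mff KO. The list's median log2 fold change was 0.34, but -0.08 without gs1_C8 and 0.06 without gs2_B4. Of 34 integrin and focal adhesion genes, 10 were higher (29.4%) and 3 were lower (8.82%), against 19% and 19.2% of all genes. Among integrin chains, Itga7 stood at 9.69 and 10.6 CPM in Drp1 KO and 3.90 and 1.15 CPM in Mff KO, while Itgb6, which helps activate latent TGF-beta, stood at 26.6 and 30.0 CPM in Drp1 KO and 43.1 and 68.1 CPM in Mff KO.

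Of 26 matrix proteases and inhibitors, 12 were higher in both Drp1 KO clones (46.2%, against 19% of all genes) and 0 were lower (against 19.2%). The list's median log2 fold change was 0.20. Mmp9, a gelatinase (chromosome 2, 164940780 to 164955850), measured 357, 364 and 348 CPM in gs1B8 and 222, 234 and 218 CPM in gs2_B4. It measured 103, 123 and 120 CPM in gs1_B4 and 57.2, 112 and 78.2 CPM in gs1_C8. The groups did not overlap, and the parental mean of 85.3 CPM lay near the Mff KO clones. DESeq2 gave Mmp9 an adjusted p of 2.9e-05, the voom fit gave 0.077 and edgeR gave 0.44. Mmp3, stromelysin-1, stood at 14.1 and 39.6 CPM in Drp1 KO and 9.66 and 2.29 CPM in Mff KO.

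**Figure D3:**
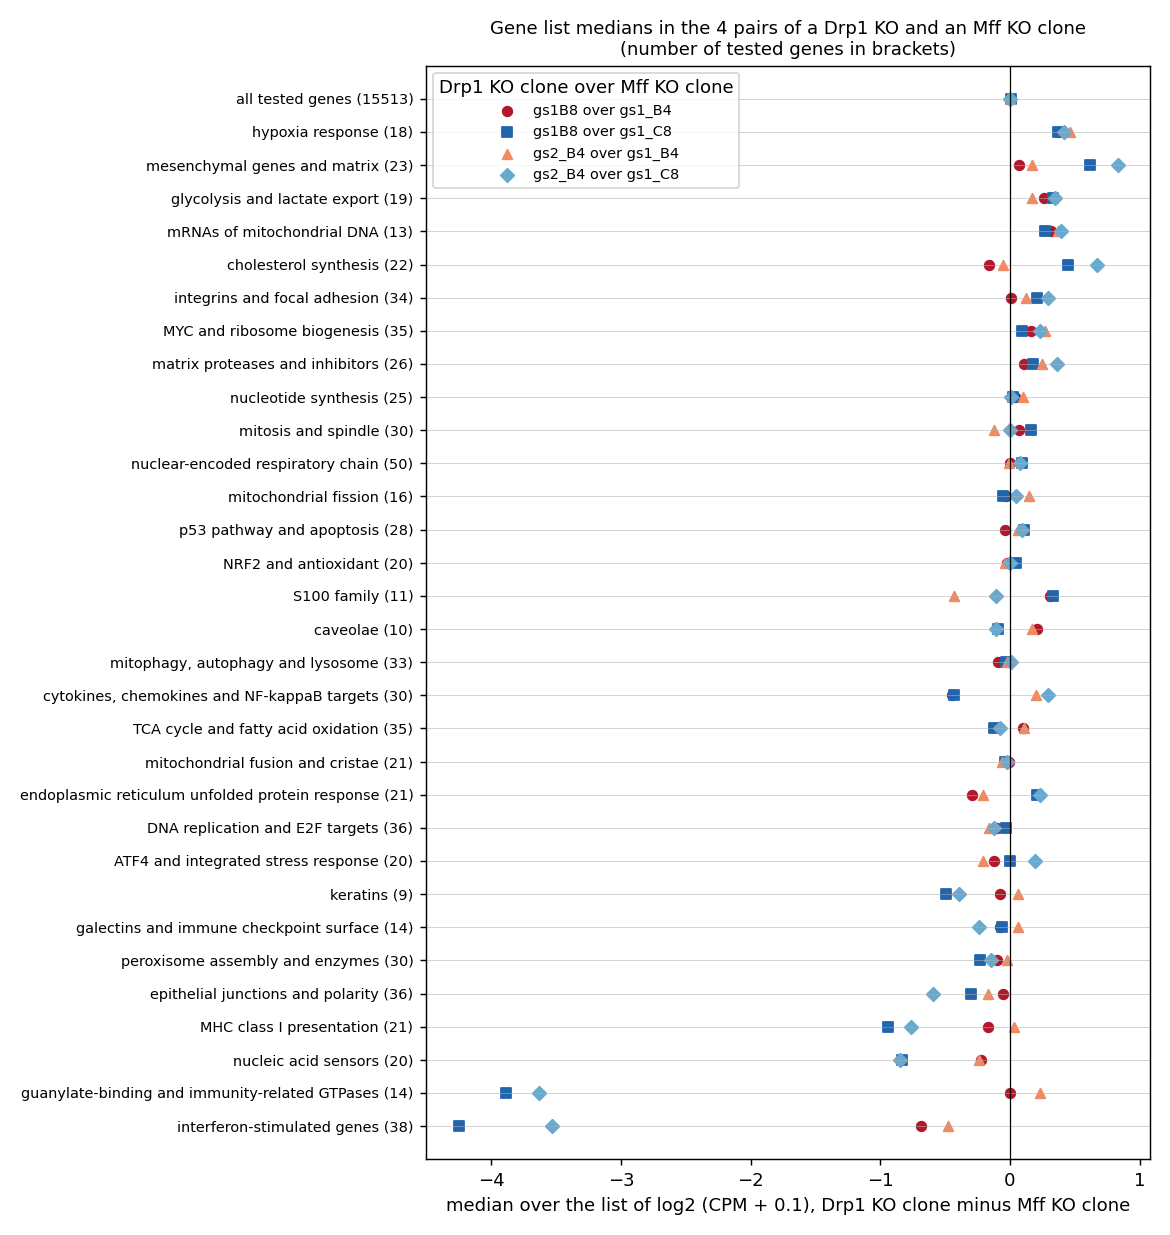
Median log2 difference in CPM (0.1 added) of each of 31 gene lists and of all tested genes, one point for each of the 4 pairs of a Drp1 KO clone with an Mff KO clone. The interferon-stimulated list lies at -4.25 and -3.53 over gs1_C8 and at -0.69 and -0.48 over gs1_B4. Hypoxia, glycolysis and mitochondrial DNA mRNAs are among the lists above 0 in all 4 pairs.

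The lists of mitochondrial DNA mRNAs, hypoxia and glycolysis had small differences on the same side in all 4 clone pairs. They were not alone in this. The MYC, matrix protease, mesenchymal, integrin and nucleotide synthesis lists also had medians above 0 in all 4 pairs. The interferon, nucleic acid sensor, epithelial junction, DNA replication, peroxisome and mitochondrial fusion lists had medians below 0 in all 4. Mitochondrial DNA encodes core subunits of the respiratory chain. Of its 13 mRNAs 9 (69.2%) were higher in both Drp1 KO clones and 1 (mt-Co1, 7.69%) was lower. Of all genes 19% were higher and 19.2% lower. The median log2 fold change of the 13 was 0.25. For some the nearest clones hardly differed. In gs1B8 and gs1_B4, mt-Cytb stood at 4009 and 3997 CPM and mt-Nd5 at 1502 and 1491 CPM. The lower mt-Co1 stood at 8103 CPM in gs2_B4 and 8113 CPM in gs1_B4. mt-Nd1, a subunit of complex I, measured 5779 ± 224 CPM in gs1B8 and 6087 ± 320 CPM in gs2_B4, against 4412 ± 209 CPM in gs1_B4 and 3637 ± 153 CPM in gs1_C8. mt-Nd2, another such subunit, measured 3127 ± 110 CPM and 3531 ± 93.8 CPM in Drp1 KO, against 2375 ± 98.3 CPM and 2094 ± 103 CPM in Mff KO. mt-Atp6, a subunit of ATP synthase, measured 280 ± 36.7 CPM and 276 ± 73.5 CPM in Drp1 KO, against 141 ± 10.8 CPM and 142 ± 39.6 CPM in Mff KO. DESeq2 gave adjusted p of 0.013 for mt-Nd1, 0.0046 for mt-Nd2 and 8.4e-12 for mt-Atp6. The voom fit gave 0.048, 0.026 and 0.33, and edgeR gave 0.68, 0.68 and 0.22.

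The values of mt-Co3, a subunit of complex IV, turned on 1 library. It measured 45.4, 59.4 and 267 CPM in gs1B8 and 52.0, 139 and 107 CPM in gs2_B4, against 63.2, 77.0 and 89.9 CPM in gs1_B4 and 86.1, 53.7 and 82.9 CPM in gs1_C8. Its log2 fold change of 0.54 became -0.00 without the third library of gs1B8. Copies of mitochondrial sequence in the nuclear genome can share reads with these genes, so their counts are uncertain. The 50 tested nuclear-encoded subunits of the respiratory chain had 12 members higher (24%) and 5 lower (10%) in both Drp1 KO clones. Their median was 0.02, and the shares of all genes were 19% and 19.2%.

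Hypoxia-response genes are targets of the HIF transcription factors. Of 18 tested, 11 were higher in both Drp1 KO clones (61.1%) and 2 were lower (11.1%, Adm and Higd1a). Their median log2 fold change was 0.44, and the shares of all genes were 19% and 19.2%. Bnip3l, a receptor of mitophagy, measured 170 ± 9.79 CPM and 160 ± 21.4 CPM in Drp1 KO, against 113 ± 10 CPM and 116 ± 12.2 CPM in Mff KO. P4ha1, a collagen prolyl hydroxylase, measured 79.6 ± 2.83 CPM and 84.6 ± 7.81 CPM in Drp1 KO, against 53.6 ± 6.27 CPM and 56.9 ± 4.23 CPM in Mff KO. Ddit4, an inhibitor of mTORC1, measured 21 and 27.8 CPM in Drp1 KO, against 5.48 and 14 CPM in Mff KO. DESeq2 called 3 of the 18 (Bnip3l at 0.00022, P4ha1 at 0.0022 and Kdm3a at 0.0091). The voom fit called none (0.29, 0.19 and 0.46 for these 3), and edgeR called none, with 4 at an unadjusted p under 0.05. P4ha1 and Ddit4 lie on chromosome 10 and Bnip3l on chromosome 14, 2 chromosomes whose genes had raised medians, as given further on.

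Glycolysis and lactate export showed 10 of 19 genes (52.6%) higher in both Drp1 KO clones and 1 (5.26%) lower. The shares of all genes were 19% and 19.2%, and the list's median log2 fold change was 0.26. Ldha, which makes lactate from pyruvate, measured 1124 ± 56.8 CPM and 1234 ± 108 CPM in Drp1 KO, against 876 ± 17.1 CPM and 841 ± 36.4 CPM in Mff KO. Pfkl, the liver type of phosphofructokinase, measured 181 ± 11 CPM and 154 ± 20.1 CPM in Drp1 KO, against 108 ± 5.88 CPM and 106 ± 4.44 CPM in Mff KO. The 1 lower gene, Pfkfb3, makes the activator of phosphofructokinase, and it measured 16.8 ± 2.34 CPM and 20.9 ± 0.990 CPM in Drp1 KO, against 32.3 ± 0.675 CPM and 53.8 ± 4.26 CPM in Mff KO. DESeq2 gave Pfkfb3 an adjusted p of 0.010 and Ldha 0.39. Cholesterol synthesis genes depended on the Mff KO clone, with medians of -0.16 and -0.05 over gs1_B4 and 0.45 and 0.67 over gs1_C8, and a fitted median of 0.23, or -0.11 without gs1_C8.

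Genes of MYC and ribosome biogenesis make and process ribosomal RNA. Of 35 tested, 19 were higher in both Drp1 KO clones (54.3%) and 0 were lower, by small amounts (median log2 fold change 0.20). Of all genes 19% were higher and 19.2% lower. Fbl, the methyltransferase fibrillarin, measured 200 ± 4.45 CPM and 214 ± 10.3 CPM in Drp1 KO, against 155 ± 9.95 CPM and 171 ± 9.17 CPM in Mff KO. Npm1, a nucleolar chaperone, measured 5358 and 5493 CPM in Drp1 KO, against 4790 and 4545 CPM in Mff KO. Myc itself overlapped, at 178 and 259 CPM in Drp1 KO and 113 and 265 CPM in Mff KO. None of the 35 was called by edgeR (4 had an unadjusted p under 0.05), DESeq2 or the voom fit. At the level of libraries, 10 of them were called higher in all 4 clone pairs. Of 36 genes of DNA replication, 2 were higher (5.56%, Mcm7 and E2f8) and 12 were lower (33.3%) in both Drp1 KO clones. Ccne1, cyclin E1, stood at 9.31 and 14.7 CPM in Drp1 KO and 20.6 and 21.9 CPM in Mff KO. Of 30 mitosis genes 4 were higher (13.3%) and 2 were lower (6.67%), both below the shares of all genes. These shares turned on the Drp1 KO clone. Without gs2_B4, 70.0% of the 30 were higher and 6.67% lower, against 31.6% and 30.7% of all genes (list median 0.1). Without gs1B8, 13.3% were higher and 46.7% lower, against 32.4% and 32.6% of all genes (list median -0.1).

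Some single genes of other pathways stood apart. Osgin1, a target of the antioxidant factor NRF2 (chromosome 8, 119434124 to 119446256), measured 11.4 ± 0.934 CPM and 16.3 ± 1.5 CPM in Drp1 KO, against 32.9 ± 3.29 CPM and 35.5 ± 1.46 CPM in Mff KO, with adjusted p of 1.7e-05 by DESeq2, 0.0076 by voom and 0.41 by edgeR. Casp8, the initiator caspase of death receptors, measured 70.6 ± 2.80 CPM and 75.8 ± 2.02 CPM in Drp1 KO, against 107 ± 1.65 CPM and 98.4 ± 6.89 CPM in Mff KO. Serpinb9, an inhibitor of granzyme B, measured 94.1 ± 12.3 CPM and 86.3 ± 9.90 CPM in Drp1 KO, against 24.3 ± 0.993 CPM and 64.5 ± 7.07 CPM in Mff KO. Ehd4, an ATPase of membrane trafficking, measured 223 ± 3.85 CPM and 205 ± 6.85 CPM in Drp1 KO, against 337 ± 17.9 CPM and 331 ± 1.27 CPM in Mff KO. For Casp8, Serpinb9 and Ehd4 the adjusted p was 0.0052, 0.64 and 0.32 by DESeq2. It was 0.073, 0.13 and 0.0055 by voom, and 0.69, 0.8 and 0.76 by edgeR. Peroxisomal genes, whose organelle is also divided by Drp1 and Mff, had 4 of 30 members higher (13.3%) and 8 lower (26.7%), near the shares of all genes, with a median of -0.13. The NRF2, p53, ATF4, unfolded protein, nucleotide synthesis, TCA cycle, mitochondrial fusion, cytokine, caveola, S100, keratin, galectin and autophagy lists had medians between -0.13 and 0.05. Some of these turned on 1 clone. The cytokine list had a median of -0.58 without gs2_B4, and the keratin list -0.30. The unfolded protein list stood at 0.23 without gs1_B4 and -0.25 without gs1_C8. The S100 list stood at -0.28 without gs1B8 and 0.26 without gs2_B4. The caveola list stood at 0.21 without gs1_C8, and the p53 list at 0.16 without gs1_B4.

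The genes of some chromosomes lay mostly on one side. Over 11702 genes with a mean of at least 1 CPM, 19.4% were higher in both Drp1 KO clones and 19.1% were lower. On chromosome 2, 49.7% of 947 genes were lower and 5.07% higher, with a median log2 fold change of -0.22. On chromosome 8, 40.3% of 632 genes were lower and 4.75% higher, with a median of -0.21. On chromosome 10, 43.0% of 554 genes were higher and 5.96% lower (median 0.15), and on chromosome 14, 38.0% of 411 genes were higher and 2.68% lower (median 0.23). The chromosome 14 shift was mostly over gs1_B4, with medians of 0.38 and 0.48 over that clone and 0.04 and 0.11 over gs1_C8. On chromosome 8 it was mostly from gs2_B4, at -0.28 and -0.33, against -0.07 and -0.10 for gs1B8. These 4 chromosomes were chosen after their values were seen, and no test was made.

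On chromosomes 19, X and 17 the medians also differed by clone. Chromosome 19 had medians of -0.35 and -0.24 for gs2_B4 and of 0.10 and 0.20 for gs1B8 over the Mff KO clones gs1_B4 and gs1_C8. Chromosome X had medians of 0.49 and 0.20 for gs1B8 and gs2_B4 over gs1_B4, and of -0.15 and -0.41 over gs1_C8. On chromosome 17 the medians were 0.32 and 0.36 over gs1_C8, but -0.03 and 0.00 over gs1_B4. Among the genes named above, Vim, Ifih1, B2m, Pfkfb3, Ehd4, Itgb6, Col5a1 and Mmp9 lie on chromosome 2, and Tlr3, Osgin1, Cdh1 and Col4a1 on chromosome 8. Lrp1, Itgb2, Itga7, Pfkl, P4ha1, Ddit4, Mtfr2 and Ccn2 lie on chromosome 10, and Bnip3l and Rnaseh2b on chromosome 14. Col5a1 and Mmp9 stood on the opposite side from the median of chromosome 2, and Mtfr2 and Ccn2 from that of chromosome 10. The part of these chromosome shifts in the gene differences was not tested.

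**Figure D4:**
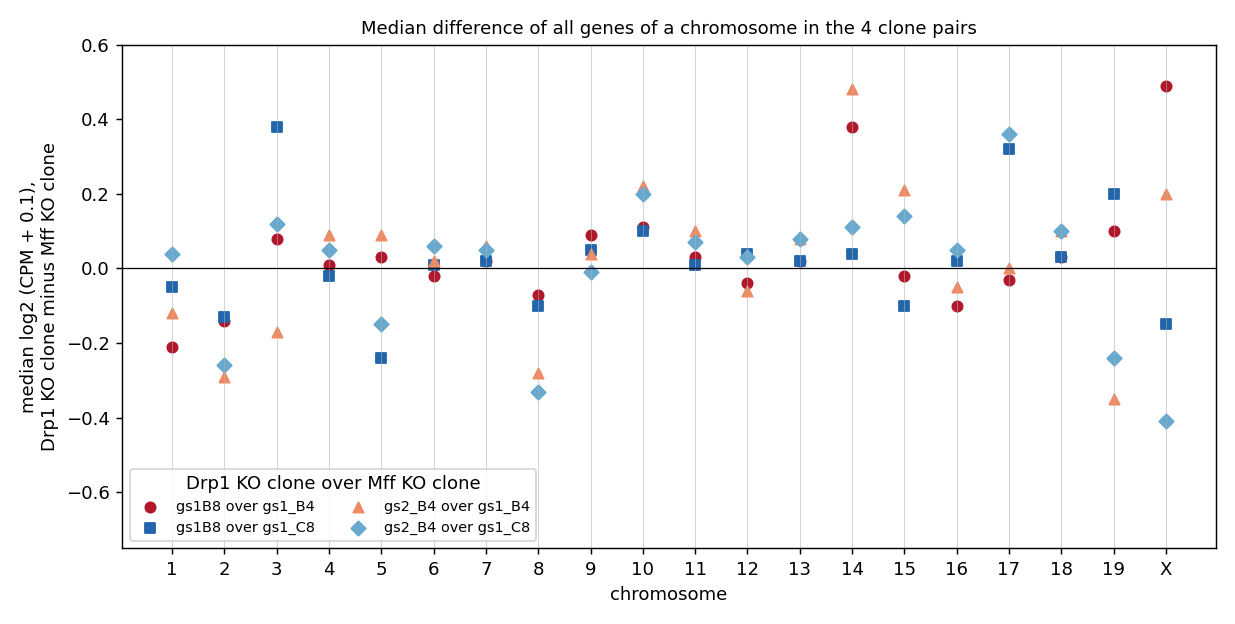
Median log2 difference in CPM (0.1 added) of the genes of each chromosome, one point for each of the 4 pairs of a Drp1 KO with an Mff KO clone. Chromosomes 2 and 8 lie below 0 and chromosomes 10 and 14 above 0 in all 4 pairs, and chromosomes 19 and X split by clone.

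A stretch of chromosome 5 held neighbouring genes that differed alike in all 4 clone pairs. The genome was scanned for at least 5 consecutive genes with a mean of at least 2 CPM, all on the same side and each at least 0.5 apart on the log2 scale in every pair, and 1 stretch was found. It ran from 123907175 to 124478366 (GRCm38) and held 10 genes, Denr, Hip1r, Vps37b, Arl6ip4, Pitpnm2, Mphosph9, Cdk2ap1, Sbno1, Kmt5a and Rilpl2. Their log2 fold changes ran from 0.97 to 1.55, with a median of 1.16, and those of 16 flanking genes from -0.40 to 0.57. Kmt5a, a histone H4 methyltransferase, measured 155 and 152 CPM in Drp1 KO, against 71.3 and 73.8 CPM in Mff KO, with 97.5 CPM in parental cells. Cdk2ap1, an inhibitor of CDK2, measured 95.8 and 106 CPM in Drp1 KO, against 47.9 and 44.7 CPM in Mff KO, with 66.9 CPM in parental cells. Parental levels lay between the genotypes in 9 of the 10 genes, and for Denr the parental level of 117 CPM lay between the Mff KO clones. For both named genes the Fis1 KO clones stood near the Drp1 KO clones, at 144 and 152 CPM for Kmt5a and 104 and 97.1 CPM for Cdk2ap1. The stretch was chosen by its values, so no test was made, and edgeR's adjusted p of its genes was 0.21 or above.

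**Figure D5:**
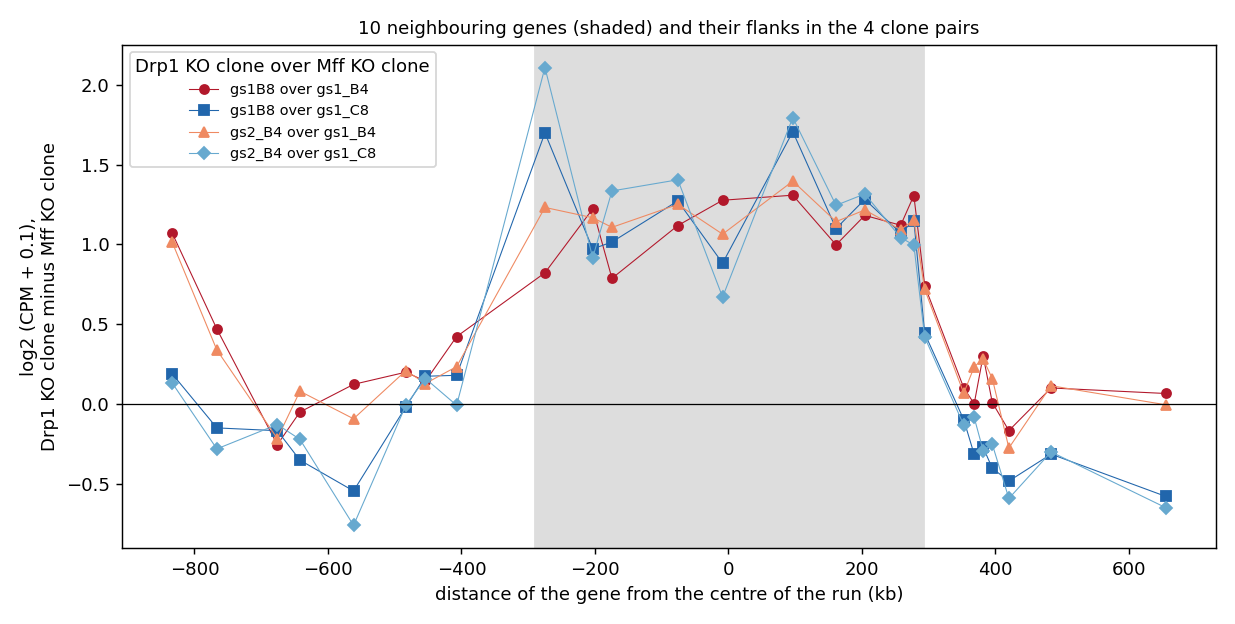
Log2 difference in CPM (0.1 added) of 10 neighbouring genes (shaded) and 16 flanking genes on chromosome 5 by distance from the centre of the stretch in kb, one line for each of the 4 pairs of a Drp1 KO with an Mff KO clone. The 10 genes lie above 0.5 in every pair, and most flanking genes lie near or below 0.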

How the data were processed

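RNA of 4T1 cells was made into libraries with poly-A selection, per the labels' protocols. Reads were trimmed with Trimmomatic 0.35 and genes quantified with RSEM on GRCm38 (mm10), per the submitters' processing notes. The sources used here name no aligner and no RSEM version. The authors deposited RSEM expected counts per gene, with no scaling between libraries, for 55401 genes. Of these values in 21 libraries 91.4% were whole, zeros included, and 74.8% of those above 0 were whole. All were rounded to whole numbers. Clones were taken from the column names.

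For the main test, counts were summed over the 3 libraries of each clone. The 6 sums of the Drp1, Fis1 and Mff KO clones were fitted with edgeR 4.0.16 in R 4.3.3 (filterByExpr, TMM factors, quasi-likelihood F test, two-sided, Benjamini-Hochberg over 15513 genes, threshold 0.05). Alternatives used DESeq2 1.42.0, limma 3.58.1 (voom), other filters, units of replication and left-out libraries or clones. The estimated correlation within a clone was 0.761. CPM used TMM factors over 21 libraries, and a pseudocount of 0.1 CPM for log2 differences. Gene lists were described by counts and medians with no test. The edgeR test was tested on simulated data. Figures were drawn with matplotlib 3.10.9.

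Named genes were the 3 fission genes, 3 fusion genes, the 12 in each direction with the widest gap between the genotypes and a mean of at least 5 CPM, and up to 4 of each list; a few others, named for a small count or for their chromosome, were chosen after their values were seen. The comparison, the 31 gene lists and the alternatives were chosen with earlier results of these data known. List counts without a clone were added after seeing these results. Gene coordinates are those of the deposited table. Values of single genes that are not reported here still count in the lists.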

Additional observations from a re-analysis of the deposited data

Results flagged for a closer look

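Of 270 sets of 6 libraries (a named gene in a genotype), 8 had 1 library farther from the other 5 than the spread of the set allowed by Dixon's test at the 95% level, which chance gives in about 1 in 20 sets. The 6 libraries come from 2 clones, so a set can be split by clone. In Drp1 KO the third library of gs2_B4 was high for the hypoxia targets Bnip3 (22.8 CPM) and Kdm3a (63.1 CPM). Both genes were also highest in the third library of gs1_B4, of gs1_C8 and of parental cells, but in the second library of gs1B8. In Mff KO the first library of gs1_C8 was high for B2m (541 CPM) and H2-D1 (285 CPM), both of MHC class I. In Mff KO the second library of gs1_C8 was low for Ldha (799 CPM) and the third was low for the caveolar coat gene Cavin1 (161 CPM). In Mff KO clone gs1_B4 the first library was high for Apool (32.1 CPM), a cristae gene, and the second was high for Itgb2 (2.09 CPM).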

How the results depend on the processing

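The main count of 1 gene (Ppp1r9a) moved to 231 with DESeq2, 34 with no low-count filter, 0 with only the Drp1 and Mff clones in the fit (864 genes at an unadjusted p under 0.05), 135 with voom and the clone as a random effect, 86 with the serial run as a replicate block in that fit, 1517 when called in all 4 clone pairs and 3104 with 12 libraries as replicates. edgeR called 0 genes without clone gs1B8 (722 at an unadjusted p under 0.05), 29 without gs1_B4 and 0 without gs1_C8 (1126). Without gs2_B4 the 1 call was Fam111a, not Ppp1r9a. The count was 1 with DESeq2 size factors, with ribosomal RNA genes left out, with a log2 minimum of 1 and without each of 18 libraries in turn. For Ppp1r9a the adjusted p was 0.10 with only the Drp1 and Mff clones.

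Of 4305 values for 135 named genes, 5 changed sign: Fis1 to -0.02 without gs2_B4, Mfn1 to 0.15 without gs2_B4 and 0.07 without gs1_C8, Opa1 to 0.02 without gs1_B4, and mt-Co3 to -0.00 without the third library of gs1B8 (up to 0.77 without the first). A further 324 passed the threshold under an alternative only. Of 961 list medians, 32 moved by more than the spread between clones, the interferon list among them. The cause of these changes was not tested. A block on the labels' replicate numbers was not run, because the columns do not carry them. The columns carry serial numbers that run 3 times through the clones, and the block on these runs was added after seeing the data. Libraries of the same run in different clones deviated together little (correlation from -0.05 to 0.19, median 0.08, against -0.04 in other runs). Even so, 10 of 12 libraries correlated best with one of their own run. The main test summed the libraries of each clone and took no account of the runs. With the runs as a block the voom fit called 86 genes, against 135 without it. With 2 clones per genotype, simulated differences of 2-fold were mostly missed.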
